A study of Mus musculus with 6 samples.

Results

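The genes described here are 10 enzymes measured in mouse liver, which make the glucuronidation cofactor UDP-glucuronate or belong to the UGT2 and UGT3 transferase families. Ugdh and Ugp2 supply the cofactor, and Ugt2a3, Ugt2b1, Ugt2b5, Ugt2b34, Ugt2b35, Ugt2b36, Ugt3a1 and Ugt3a2 are sugar transferases. They were chosen by gene symbol from the platform annotation, as 10 of the 18193 genes that had a probe set of their own on the array. All 10 were found, with 16 probe sets between them, and all 16 were bright enough to be tested. The array study compared 3 conditional Keap1 knockout livers with 3 control livers, with 1 male mouse aged 9 weeks per array. The knockouts carried Alb-Cre, a floxed Keap1 allele and a null Keap1 allele, written Keap1(flox/-). The controls carried the same Alb-Cre with a floxed and a wild-type allele, Keap1(flox/+). All 6 mice, controls included, had been given the vehicle alone, a mixture with 10% DMSO and 10% Cremophor-EL in 80% PBS. The albumin promoter drives Cre in hepatocytes, while the RNA came from liver tissue with all its cell types, and the null allele is present in every cell of the knockouts. Cre can also act on the floxed allele in control hepatocytes, which would leave them the wild-type allele alone.

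Glucuronidation joins glucuronic acid to drugs, steroids, bilirubin and other lipophilic compounds, which makes them soluble enough to leave in bile or urine. UGP2 makes UDP-glucose from glucose 1-phosphate and UTP, and UGDH oxidises UDP-glucose to UDP-glucuronic acid in the cytosol. Transferases of the UGT1 and UGT2 families, which sit in the endoplasmic reticulum, then use that cofactor, while UGT3 enzymes are known to use other UDP-sugars. KEAP1 holds down the transcription factor NRF2, which acts with small Maf proteins at antioxidant response elements of detoxification genes.

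The labels were checked on Keap1 itself, whose brighter probe set gave a signal of 151 to 326 in the knockouts and 700 to 843 in the controls (log2 difference -1.74, limma adjusted p = 0.0102). Its other probe set differed by -0.71 without passing, and where the probe sets lie relative to the floxed exons was not analysed here. The trimmed mean was 500.0 on every array, so the authors' scaling was the same for all, and the highest signal of an array lay between 37657 and 45204. The ratio of 3′ to 5′ actin signal, a sign of RNA quality, was 1.58 to 1.85 in the knockouts and 1.54 to 1.9 in the controls. Of 7 hepatocyte markers measured, 0 changed and 6 had a positive difference (median log2 difference 0.16). The summed signal of the 7 was 167892 to 183500 in the knockouts and 144968 to 167244 in the controls. Among markers of macrophages, endothelium, stellate cells and bile ducts, 0 of 7, 0 of 6, 0 of 6 and 0 of 4 tested genes changed, and among leukocyte markers Lat fell while the other 4 tested did not pass. The median differences of these lists were 0.21, -0.04, -0.09, -0.57 and -0.06. The summed signal of the stellate markers was lower in every knockout, 3216 to 3434 against 3832 to 4262 in the controls. That of the endothelial markers was higher in every knockout, 5469 to 5834 against 5330 to 5417. The sums of the macrophage, bile duct and leukocyte markers overlapped between groups. Lat differed by -2.03 (limma adjusted p = 0.0225), with dim signals of 43.1, 25.9 and 31.2 in the knockouts and 187.7, 129.2 and 250.8 in the controls. Without passing, the macrophage marker Marco differed by 1.40 and the endothelial marker Lyve1 by 1.29, each without overlap (adjusted p = 0.120 and 0.118). All 4 bile duct markers had lower knockout means, but they were dim and their groups overlapped. Among them Krt19 had 88.5, 11.3 and 18.4 in knockouts 3, 4 and 5. It had 8.3, 501.9 and 17.4 in controls 1, 2 and 3, so control 2 alone made its control mean the higher. Marco, Lyve1 and Krt19 were picked after their values were seen, and the part of these markers in the member differences was not tested. In whole liver fewer cells of a type and less RNA per cell cannot be told apart.

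Transcript signal of Ugdh and of most Ugp2 probe sets was higher in the knockouts, and 1 of 10 transferase probe sets passed the test. Differences are given on the log2(signal + 16) scale as knockout minus control. A gene is said to have risen or fallen only where limma's adjusted p (Benjamini-Hochberg) was under 0.05 over all 27022 probe sets tested. By that rule 6 of the 16 member probe sets rose and 0 fell, whereas 1.54% of all probe sets tested changed, 0.814% of them upward and 0.722% downward. The 6 were the Ugdh probe set, 4 of the 5 for Ugp2 and the Ugt2b35 probe set. They belong to 3 of the 10 genes. In a separate fit with 1 probe set per gene, adjusted over those genes, 2.02% of all genes tested changed. Without any 1 array 1 to 4 of the 16 rose, and Ugdh was the only supply probe set among them in 4 of these 6 fits, those without knockout 3, knockout 4, control 2 or control 3. In 9 of the 16 every knockout lay above every control, which held for 9.10% of all probe sets tested.

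**Figure D1:**
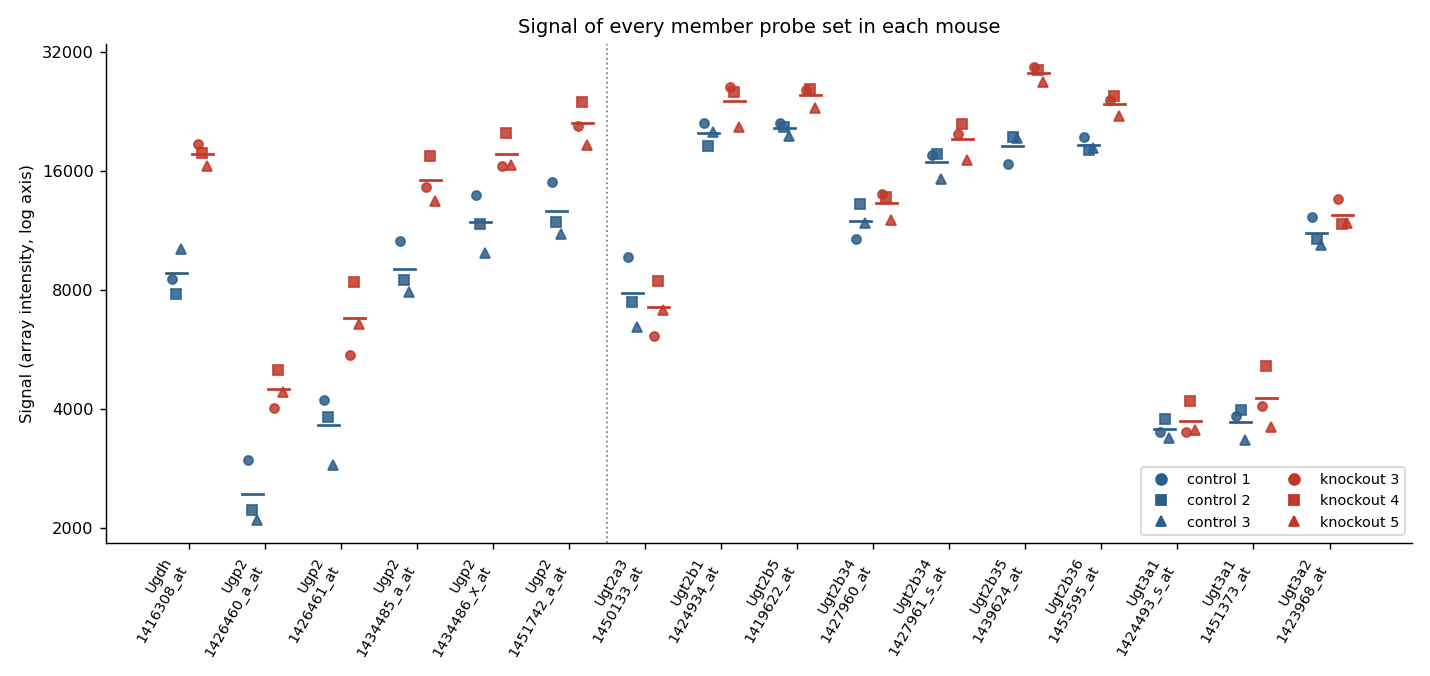
Signal of the 16 member probe sets in each mouse, on a log axis, with controls in blue, knockouts in red, a symbol per mouse and a line at each group mean. Left of the dotted line the 6 Ugdh and Ugp2 probe sets separate the groups without overlap, while to its right only those of Ugt2b5, Ugt2b35 and Ugt2b36 do.

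Ugdh, which catalyses the step that commits UDP-glucose to UDP-glucuronic acid, had a signal of 18753, 17722 and 16476 in knockouts 3, 4 and 5. It was 8519, 7812.5 and 10173 in controls 1, 2 and 3. The lowest knockout stood well above the highest control. The knockout mean was 17650.2 ± 1140 and the control mean 8835 ± 1212 (SD, n = 3 each). The log2 difference was 1.00, or 2.01-fold, with a standard error of 0.11. Its 95% confidence interval was 0.75 to 1.26 (limma adjusted p = 0.00378). Of all probe sets tested, 0.966% had a larger positive difference. The Ugdh call held without any 1 array, with log2 differences of 0.92 to 1.11 and adjusted p of 0.00367 to 0.0238. It was lost without the variance trend, at an adjusted p of 0.0533.

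The sequence before the Ugdh start is shown because, among the members with a promoter entry, it alone held the letters of the antioxidant response element, the element at which NRF2 and small Maf proteins bind. Promoter windows ran from 250 bases before to 50 after each annotated start in RefSeq (GRCm38.p6), and 9 of the 10 members matched an entry, all but Ugt3a2. The letters TGACNNNGC were sought on both strands. The 150 bases upstream of the Ugdh start, chr5:65435843-65435992 on the minus strand, read 5′ to 3′ in the direction of the gene as follows, with the matches in capitals.
Ugdh: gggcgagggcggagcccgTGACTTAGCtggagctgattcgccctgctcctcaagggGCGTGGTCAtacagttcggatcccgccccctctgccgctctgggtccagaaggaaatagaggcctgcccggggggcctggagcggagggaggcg
The first match, TGACTTAGC, lies 132 to 124 bases before the start on the strand of the gene. The other lies 94 to 86 bases before it and reads TGACCACGC on the opposite strand. At least 1 match was found in 12.4% of all 32851 windows, and at least 2 in 0.986%. Of the 8 matched genes among 10 reference targets of NRF2, 3 held a match in the same window, Gclm, Srxn1 and Txnrd1. A match is a run of letters and not a measured binding site, and no match says only that the letters are not in that window.

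Ugp2, which makes the UDP-glucose that Ugdh oxidises and that glycogen synthase also uses, was read by 5 probe sets that share a source transcript and are not replicates of each other. In the brightest of them, 1451742_a_at, the signal was 20812, 23860.4 and 18581 in knockouts 3, 4 and 5. It was 14959, 11854 and 11089.5 in controls 1, 2 and 3. The groups did not overlap, and the difference was 0.74 with a standard error of 0.14 (1.67-fold, limma adjusted p = 0.0338). The other 4 gave differences of 0.58, 0.75, 0.89 and 0.90. Of these, 1434486_x_at at 0.58 did not pass (adjusted p = 0.0873, 95% confidence interval 0.27 to 0.89). Its suffix marks probes that can also match other sequences. The largest differences of the 5 were those of 1426460_a_at, with 4483.5 ± 506 against 2431 ± 476, and 1426461_at, with 6804 ± 1470 against 3637 ± 673 (adjusted p = 0.0234 and 0.0480). Of the 6 fits without 1 array, the call for 1426460_a_at held only in the fit without control 1 (adjusted p = 0.0119 to 0.0864), and that for 1426461_at held in 0 (adjusted p = 0.0597 to 0.118). The call for 1426461_at also held in 5 of 12 processing alternatives.

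The order of the mice was largely shared by the Ugp2 probe sets. Knockout 4 was the highest knockout, control 1 the highest control and control 3 the lowest control in all 5, while knockout 5 was the lowest knockout in 2 of them. The order of Ugdh was different, with control 3 as its highest control and knockout 3 as its highest knockout. The call for 1451742_a_at was lost without knockout 3, knockout 4, control 2 or control 3 (adjusted p = 0.120, 0.0942, 0.121 and 0.0999), with log2 differences of 0.65 to 0.87 over all 6 such fits. It held without knockout 5 and without control 1. Neither Ugp2 window, of its 2 annotated starts, held TGACNNNGC.

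Among the transferases 1 of 10 probe sets rose, that of Ugt2b35, and 0 fell. Ugt2b35, an enzyme of the UGT2B subfamily, had a signal of 29333, 28741 and 26835.5 in knockouts 3, 4 and 5. It was 16628, 19457.5 and 19366 in controls 1, 2 and 3. Control 1 was the lowest, and the groups lay far apart. The difference was 0.62 with a standard error of 0.10 and a 95% confidence interval of 0.40 to 0.83, or 1.53-fold (limma adjusted p = 0.0175). The call was lost without knockout 3, knockout 4, control 1 or control 2 (adjusted p = 0.0841, 0.0585, 0.0528 and 0.0542), with log2 differences of 0.54 to 0.66 over the 6 fits without 1 array.

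Ugt2b36 and Ugt2b5 separated the groups by less. Ugt2b36 had 24109, 24716 and 22038.5 in knockouts 3, 4 and 5, against 19515, 18109 and 18236 in controls 1, 2 and 3. The groups did not overlap, but the difference of 0.34 did not pass (95% confidence interval 0.14 to 0.54, limma adjusted p = 0.112). Ugt2b5 had 25571, 25814 and 23115 in the knockouts and 21154, 20663.5 and 19595 in the controls, again without overlap. Its difference was 0.28 (interval 0.08 to 0.47, adjusted p = 0.188). Neither was called in any fit without 1 array.

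Ugt2b1 and Ugt2b34, also of the UGT2B subfamily, overlapped between groups. Ugt2b1 ranged from 20689 to 26093 in the knockouts and from 18500.3 to 21078 in the controls, and knockout 5 lay below control 1. It differed by 0.27 (interval 0.02 to 0.52, limma adjusted p = 0.312). The 2 probe sets of Ugt2b34 differed by 0.15 and 0.20 (adjusted p = 0.553 and 0.447), with intervals from -0.09 to 0.40 and from -0.05 to 0.44. Ugt2a3, the only UGT2A gene with a probe set of its own, was the only member with a lower mean, 7221 ± 1164 in the knockouts and 7862 ± 1666 in the controls. Its difference of -0.11 had an interval of -0.49 to 0.26 (adjusted p = 0.804), and it turned to 0.05 without control 1, its highest control.

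The UGT3 genes, in 3 probe sets, overlapped between groups. Ugt3a2 had 13581.5, 11764 and 11817 in knockouts 3, 4 and 5, and 12235, 10782.0 and 10372 in controls 1, 2 and 3. Control 1 lay above 2 of the knockouts, and the difference was 0.15 (interval -0.08 to 0.39, limma adjusted p = 0.531). The probe sets of Ugt3a1 differed by 0.19 for 1451373_at and 0.07 for 1424493_s_at (adjusted p = 0.586 and 0.814), and their groups overlapped. For the second, the interval of -0.17 to 0.31 corresponds to at most a 1.24-fold rise.

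**Figure D2:**
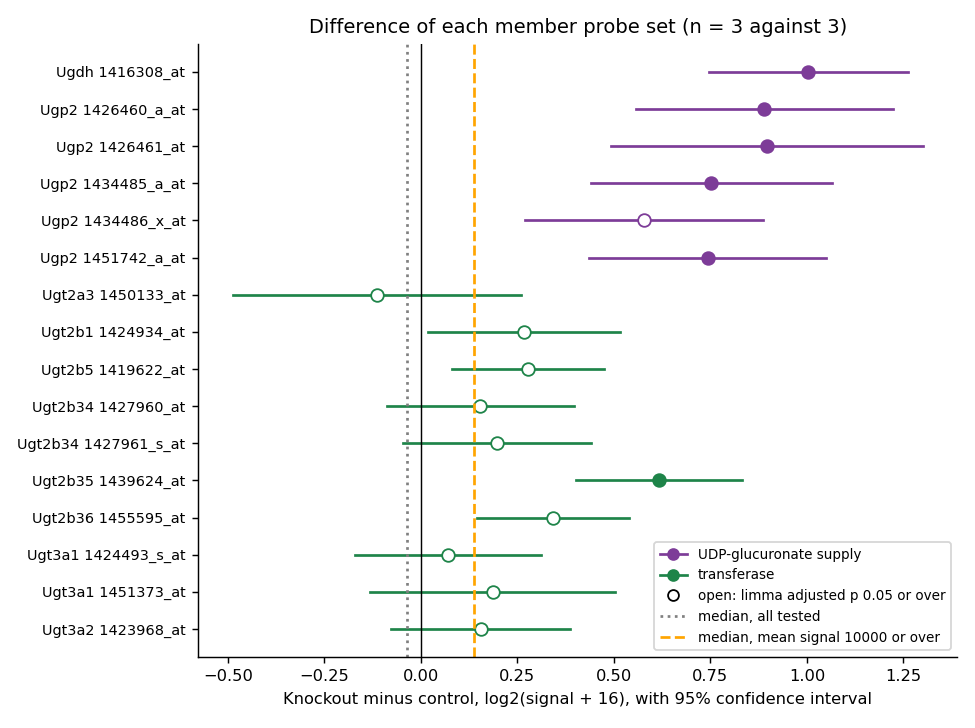
Log2 difference, knockout minus control, of each member probe set with its 95% confidence interval from limma (n = 3 against 3), with supply genes in purple, transferases in green and filled points for those that passed. Supply probe sets lie between 0.58 and 1.00, while the transferases lie between -0.11 and 0.62. The dashed line is the median of bright probe sets at 0.14 and the dotted line that of all probe sets at -0.04.

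The brightness of these probe sets bears on how small rises are read. On the arrays, 11 of the 16 member probe sets had a mean signal of at least 10000, 7 of them transferases. Among all 699 tested probe sets that bright, 80.5% had a positive difference and the median difference was 0.14, whereas the median over all probe sets tested was -0.04. Every knockout lay above every control in 32.8% of the bright ones, and 2.86% rose. The transferases had a median of 0.19, with a positive difference in 9 of 10 and no overlap in 3 of 10. The supply probe sets had a median of 0.82, with a positive difference in 6 of 6. After quantile normalization the median of bright probe sets was 0.01, that of the transferases 0.09 and that of the supply probe sets 0.77. After scaling on the hybridisation control probe sets these medians were -0.03, 0.03 and 0.66, and 6 rather than 9 transferase probe sets had a positive difference. That scaling moved the median of all probe sets to -0.20. The part of the shift of bright probe sets in the transferase differences was not tested.

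**Figure D3:**
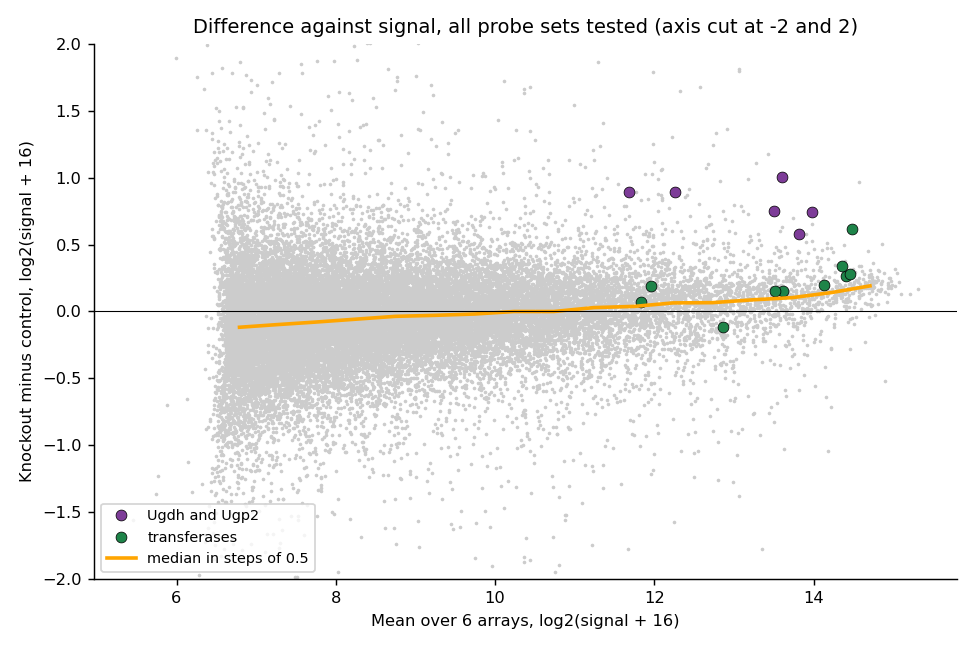
Log2 difference, knockout minus control, against the mean log2(signal + 16) over 6 arrays for the 27022 probe sets tested, in grey, with the supply genes in purple and the transferases in green. The vertical axis ends at -2 and 2, so larger differences are not shown. The orange median is higher at higher signal, the green points lie between -0.11 (Ugt2a3) and 0.62 (Ugt2b35), and the purple points between 0.58 and 1.00.

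The contrast of supply and transferases was set out in each mouse, as the mean over probe sets minus the mean of the controls. The 6 supply probe sets stood at 0.73, 0.99 and 0.72 in knockouts 3, 4 and 5, and at 0.21, -0.06 and -0.15 in controls 1, 2 and 3. The 10 transferase probe sets stood at 0.23, 0.32 and 0.10 in the same knockouts, and at 0.05, 0.03 and -0.07 in the controls. Knockout 4 was the highest in both. The gap between supply and transferases was 0.50, 0.67 and 0.62 in the knockouts, a mean of 0.60 ± 0.09, against 0.16, -0.09 and -0.07 in the controls (SD 0.14, n = 3 each). All 3 knockouts lay above all 3 controls in this gap, which is given without a test because the genes were chosen with results of these data known. With the probe sets of each gene averaged first, the gap between groups was 0.66. The 10 transferase probe sets include 3 of UGT3 genes, whose enzymes are known to use other UDP-sugars. The gap was not computed for the 7 UGT2 probe sets alone.

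**Figure D4:**
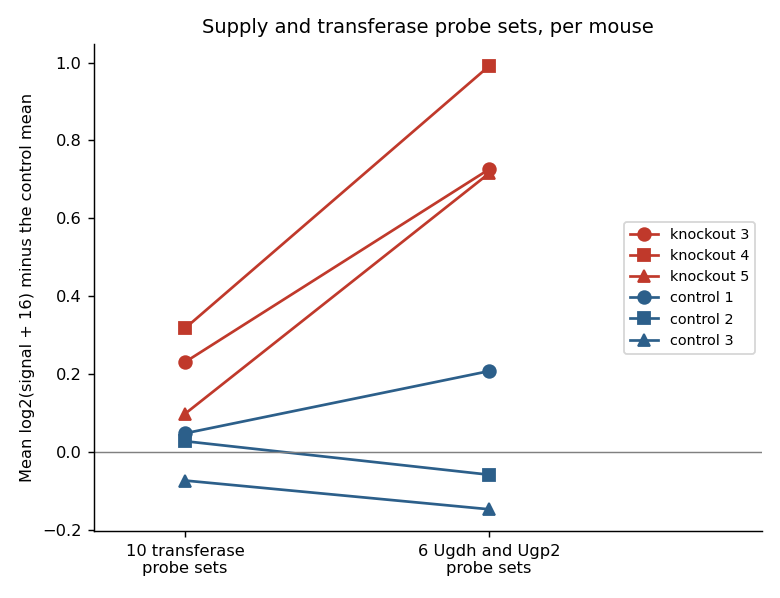
Mean log2(signal + 16) of the 10 transferase and the 6 Ugdh and Ugp2 probe sets in each mouse, each minus its control mean, with a line joining the values of a mouse. The red lines of the knockouts climb from 0.10 to 0.32 on the left to 0.72 to 0.99 on the right, while the blue control lines stay between -0.15 and 0.21.

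The UGT2 genes lie in a cluster on chromosome 5, and Ugt2b35 is the third of its 10 protein-coding genes in RefSeq order. Its neighbours are Ugt2b1 on one side and Ugt2b36 on the other. Along the cluster Ugt2b34, Ugt2b1, Ugt2b35, Ugt2b36 and Ugt2b5 differed by 0.20, 0.27, 0.62, 0.34 and 0.28 in their brightest probe sets. The next gene, Ugt2b37, had 782, 350 and 431 in knockouts 3, 4 and 5 against 203, 242 and 428 in controls 1, 2 and 3, groups that overlapped (0.79, limma adjusted p = 0.312). Ugt2b38, beyond Ugt2a3, had lower knockout values on average, with 601, 238 and 338 against 1017, 462 and 1277, and did not pass either (-1.18, adjusted p = 0.218). Related UGT2B genes are alike in sequence, and the probe sequences were not used here, so signal shared between neighbours cannot be separated.

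Other transferases of the pathway had few probe sets of their own. The UGT1A enzymes, among them the bilirubin transferase, share their last exons, and 3 probe sets were assigned to 8 Ugt1a genes together. They differed by 0.31, 0.33 and 0.35, without overlap between groups and without passing (limma adjusted p = 0.187, 0.161 and 0.116). Of 14 further UGT genes 3 had a probe set of their own, and of the 2 tested 0 changed. Ugt8a was too dim to be tested.

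Around the members, the list of UDP-sugar supply and use had 3 of 16 tested genes that rose and 0 that fell, with a median of 0.06. These counts use the fit over all probe sets, of which 1.54% changed. In a separate fit with 1 probe set per gene, adjusted over 13036 genes, 2.02% changed. Besides Ugdh and Ugp2 the gene that rose was Gbe1, the glycogen branching enzyme, whose signal was 5709 ± 565 in the knockouts and 3094 ± 54.9 in the controls (0.88, limma adjusted p = 0.00381). Upstream of Ugp2, Pgm1, which makes glucose 1-phosphate, differed by 0.38 (adjusted p = 0.277). Gys2, the liver glycogen synthase that draws on UDP-glucose, differed by -0.32 (adjusted p = 0.475).

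For transport of nucleotide sugars and hydrolysis of glucuronides, 0 of 6 tested genes changed, where 1.54% of all probe sets tested did. Slc35d1, which carries UDP-glucuronic acid into the endoplasmic reticulum, came nearest. Its signal was 9678 ± 1145 in the knockouts and 5784 ± 1186 in the controls without overlap, a difference of 0.75 (limma adjusted p = 0.0502). Whether it passed turned on the processing, since it did in 5 of 13 alternatives (adjusted p = 0.0326 to 0.176). The fit with 1 probe set per gene was among the 5. It also passed without control 2, and its differences ran from 0.62 to 0.91 over the fits without 1 array. Slc35d2 differed by -0.50 (adjusted p = 0.210), and the beta-glucuronidase Gusb by -0.11 (adjusted p = 0.710).

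Where 0.814% of all probe sets tested rose and 0.722% fell, 0 of 8 tested genes changed in the pathway from glucuronate to ascorbate and xylulose. Their median difference was -0.14, and 3 had higher knockout means. The largest difference was that of Gulo, which makes ascorbate in mice, at -0.34 (limma adjusted p = 0.241), followed by Cryl1 at -0.27 (adjusted p = 0.40). Of 6 transporters of glucuronides, which included the uptake carrier Slco1b2, 3 rose and 0 fell, with a median of 0.66. They were the efflux pumps Abcc4, Abcc2 and Abcc3 at 4.37, 0.77 and 0.71 (adjusted p = 2.03e-06, 0.0250 and 0.0188). The Abcc2 call was lost without knockout 3, knockout 5, control 2 or control 3, and that of Abcc3 without knockout 4, knockout 5, control 2 or control 3, with adjusted p up to 0.113 and 0.0691. For reference, 7 of 10 known NRF2 targets rose and 0 fell, with a median of 1.68, led by Cbr3, Gsta2, Nqo1 and Gstm3 at 6.73, 2.39, 2.31 and 2.25, of which Gstm3 was lost without knockout 3 (adjusted p = 0.0534). This list overlaps what was known of these data and is given for scale.

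**Figure D5:**
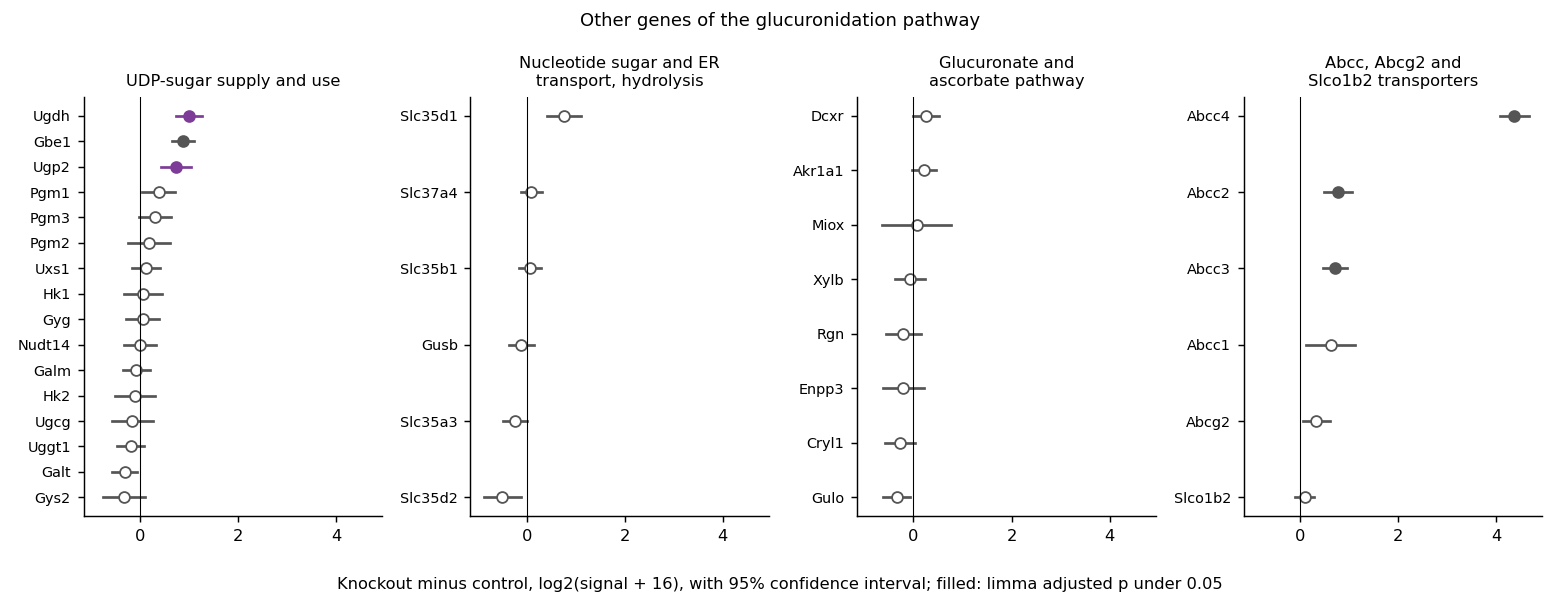
Log2 difference, knockout minus control, with its 95% confidence interval for the tested genes of 4 pathway lists, 1 probe set per gene, filled where the limma adjusted p was under 0.05. Ugdh, Gbe1 and Ugp2 lead the first panel at 1.00, 0.88 and 0.74, Slc35d1 at 0.75 the second, and Abcc4 stands apart at 4.37 in the last.

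The genes closest to Ugdh in profile were sought by the root mean square distance between log2 profiles over the 6 arrays, each centred on its own mean, among 13035 other genes. The closest 5 were Tmem62, Zfp54, Ppfibp2, Grina and Pla2g7, at distances of 0.09, 0.10, 0.11, 0.11 and 0.11 on the log2 scale. Their own differences were 0.95, 0.88, 1.03, 1.08 and 1.21, and all but Zfp54 rose (limma adjusted p = 0.0554 for Zfp54). Of the members, Ugt2b35 stood at place 65 with a distance of 0.23 and Ugp2 at place 110 with 0.26. Ugt2a3 was the farthest at 0.63. All these genes share the same 6 arrays, so the distances are a description.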

How the data were processed

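The deposited values are linear array intensity, 1 value per probe set for each of 45101 probe sets on Affymetrix arrays, made from biotin-labelled cRNA per the labels' protocols. The trimmed mean shows that the authors scaled each array to a shared target. The sources used here do not name the summarising software, its version or the genome build. Such scaling hides any change in total RNA.

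From these log2(signal + 16) was computed, which understates folds of dim genes. Probe sets with a mean signal at or above the 40th percentile were fitted with limma 3.58.1 in R 4.3.3 (eBayes, trend in the variance, two-sided tests), and p-values were adjusted by Benjamini-Hochberg over 27022 probe sets. The fitting step was run on simulated data, with a pass set on changes of 4-fold and more and on false calls. Member differences were smaller, so their recovery was not covered by that pass. Members came from probe sets with 1 gene symbol. List genes were read by their brightest probe set. Named were all members, up to 4 changed genes of each list or its 2 largest differences where none changed, and the 5 profiles nearest Ugdh, with Pgm1, Gys2 and Gusb added after their values were seen. Members and lists were chosen with earlier results of these data known. Per the labels each array holds 1 mouse, and 6 arrays limit the precision. An exact permutation test of 3 against 3 cannot go below p = 0.1. The bright background and the averaging over genes were chosen after seeing the data. Protein sequences were not used here, so a planned comparison of protein identity was not made.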

Additional observations from a re-analysis of the deposited data

How the results depend on the processing

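No paired analysis was possible because the groups share only the replicate number 3. Without any 1 array the supply probe sets that rose numbered 1 to 4 of 6 (5 with all arrays), with Ugdh alone in 4 of the 6 fits, those of the transferases 0 to 1 of 10, and those of all probe sets 150 to 296 (415 with all arrays), lowest without knockout 3. Supply calls numbered 2 without a filter, 2 after median centring, 1 after scaling on the hybridisation controls, 0 without the variance trend, and 2 of the 2 remaining probe sets both with 1 probe set per gene and without probe sets that can match several transcripts. The transferase count was 0 without a filter, after quantile normalization, median centring, cyclic loess and hybridisation control scaling, and without the trend. All calls numbered 271 without a filter, 109 without the trend and 263 over genes, where fewer features were tested. Of all calls 53.0% were higher, against 60.3% with median centring, 23.8% with hybridisation control scaling and 65.1% without the trend. The log2 gap between supply and transferases was 0.71 without probe sets that can match several transcripts, and 0.55 to 0.68 without any 1 array.

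Ugdh fell short without the trend at 1.00. Ugp2 (brightest probe set) fell short without a filter at 0.74, after median centring at 0.79, after hybridisation control scaling at 0.58 and without the trend at 0.74, and ran from 0.65 to 0.87 without any 1 array. Ugt2b35 fell short in those settings at 0.62, 0.67, 0.45 and 0.62, and also after quantile normalization at 0.47 and cyclic loess at 0.49, and ran from 0.54 to 0.66 without any 1 array. Signs turned under hybridisation control scaling for Ugt2b34 (1427960_at, -0.010), Ugt3a1 (1424493_s_at, -0.094) and Ugt3a2 (-0.0094). Without any 1 array Ugt2a3 ran from -0.25 to 0.047 and Ugt3a1 (1424493_s_at) from -0.014 to 0.12. The cause was not tested. The 3 mice per group limit what small differences can show.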

Other observations

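Among receptors and transcription factors known to act on UGT genes, leaving out the deleted Keap1, 0 of 11 tested rose and 2 fell, where 1.54% of all probe sets tested changed in either direction. Their median log2 difference was -0.08. Those that fell were Foxa3, a liver forkhead factor, and Nfe2l2, which encodes NRF2. Foxa3 stood at 1459 ± 342 against 2664 ± 349 in the controls (-0.88, limma adjusted p = 0.0405), a call that among the fits without 1 array held only without knockout 3. Nfe2l2 differed by -0.66 (adjusted p = 0.0352), a call that among those fits held only without knockout 4. The constitutive androstane receptor Nr1i3 and Hnf4a differed by 0.48 and 0.41 without passing (adjusted p = 0.0695 and 0.121). Nr1i3 and Hnf4a were picked after their values were seen.

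UDP-glucuronic acid is also a building block of heparan sulfate, chondroitin sulfate and hyaluronan. Of 11 genes that make these, 7 were bright enough to be tested and 0 changed, with a median of -0.05. Of all probe sets tested 1.54% changed. The largest difference was that of B3gat3, which adds the glucuronic acid of the linker to proteoglycans, at -0.45 (limma adjusted p = 0.169), followed by Has1, a hyaluronan synthase, at 0.27.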
